A study of Mus musculus with 77 samples.

Results

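Ly6C-high and Ly6C-low cells of mouse bone marrow and spleen were represented by 4 of the 24 immune-cell miRNA libraries of a study of 77 samples, chosen by their sample labels alone. The study set out to find the molecular signature of microglia, and these libraries belonged to the peripheral cells that microglia were set against. Each was total RNA from C57BL/6 mouse cells sorted with CD11b, an integrin chain on the surface of myeloid cells, and Ly6C, a surface protein that divides blood monocytes. The 4 libraries were Ly6C-high bone marrow, Ly6C-high spleen, Ly6C-low bone marrow and Ly6C-low spleen cells, with 1 library per combination. The labels give no treatment or genotype for them, and no statement of how many mice were pooled or what other surface proteins were used to sort. miRNAs were counted with the NanoString nCounter assay, in which a fluorescent barcode is attached to each captured molecule and barcodes are counted without amplification.

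In mouse blood, Ly6C-high monocytes are the classical cells that leave the marrow and enter inflamed tissue, and Ly6C-low monocytes are the patrolling cells that survey vessel walls and largely derive from them. CD11b is carried by neutrophils as well, so a gate on CD11b with low Ly6C can hold neutrophils and their precursors unless another marker removes them. miRNAs are short RNAs that pair through their seed, bases 2 to 8, with messenger RNAs and lower their output. In blood cells, miR-223 marks the granulocyte and monocyte lineages, miR-142 is made throughout the haematopoietic system, let-7 accumulates with differentiation, and the miR-17-92 cluster with its paralogues promotes proliferation.

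The sequences below belong to the miRNAs on which the comparisons turned, with the seed in capitals and the rest in lower case, 5′ to 3′. The first 6 separated the Ly6C classes at least 2-fold in both organs.
let-7d: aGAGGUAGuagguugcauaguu
let-7i: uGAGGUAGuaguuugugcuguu
miR-29c: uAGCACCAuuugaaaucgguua
miR-142-3p: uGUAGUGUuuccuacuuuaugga
miR-340-5p: uUAUAAAGcaaugagacugauu
miR-148a: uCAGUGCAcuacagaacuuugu
The next 6 bore on the difference between organs, where miR-16 is shown because it shares its seed with miR-15b and lay the other way.
miR-223: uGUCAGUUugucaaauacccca
miR-20a: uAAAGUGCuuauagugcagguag
miR-20b: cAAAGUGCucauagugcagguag
miR-15b: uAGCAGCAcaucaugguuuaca
miR-16: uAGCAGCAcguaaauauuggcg
miR-342-3p: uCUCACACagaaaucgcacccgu
All are RefSeq mature sequences on build GRCm38.p6. let-7d and let-7i share the seed GAGGUAG and come from separate loci, at chr13:48536078-48536099 on the minus strand and chr10:122985698-122985719 on the minus strand. miR-20a (chr14:115044183-115044205, plus strand) and miR-20b (chrX:52742159-52742181, minus strand) share AAAGUGC and were read by 1 probe, so they could not be told apart. miR-15b (chr3:69009775-69009796, plus strand) lies within the gene Smc4 beside a copy of miR-16 at chr3:69009918-69009939, and a further miR-16 copy lies at chr14:61631936-61631957 on the minus strand. miR-340-5p lies within Rnf130 (chr11:50069720-50069741, plus strand) and miR-342-3p within Evl (chr12:108658680-108658702, plus strand). miR-223 lies at chrX:96242884-96242905, miR-142-3p at chr11:87756903-87756925 and miR-29c at chr1:195037600-195037621, all on the plus strand. miR-148a lies at chr6:51269829-51269850 on the minus strand.

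The panel held 566 mouse miRNA probes. Recovered totals were 18583 and 5283 barcode counts in Ly6C-high marrow and spleen cells, against 70672 and 11730 in Ly6C-low marrow and spleen cells, and 1 count was worth between 0.412 and 2.69 units of the normalised signal. Between 103 and 182 mouse probes lay above the background limit, the mean plus 2 SD of the viral probes, which was 3.46 to 12.1. A miRNA was tested where its value was above 20 in at least 2 of the 4 libraries, which left 53 probes. With 1 library per combination, the organs served as the replicates of each Ly6C class and the Ly6C classes as the replicates of each organ. All intervals on folds below are 95% intervals from the counts and cover counting error only. Nothing in the labels says whether the 4 libraries came from separate mice, so p-values measure the disagreement between pairs of libraries, moderated by that over all tested probes. This disagreement may be partly technical. The weight of the shared spread differed between settings, so counts of calls across settings compare unlike tests. In RNA from sorted populations, fewer cells of a type and less RNA per cell cannot be told apart.

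miR-223, the myeloid marker by which the sort can be checked, was abundant in all 4 libraries. It made up 29.1% and 14.0% of the mouse miRNA signal in Ly6C-high marrow and spleen cells, and 50.9% and 18.6% in Ly6C-low marrow and spleen cells. It ranked 1 among mouse probes in 3 libraries and 2, behind miR-34c, in Ly6C-high spleen cells. The other 20 immune libraries held between 0.87 and 888 units of miR-223 (median 29.3), and none reached the lowest of these 4, at 1762. The library labelled neutrophils held 326 units of miR-223 at a total of 2827 counts. miR-148a was also higher in these 4 than in all other immune libraries: the 4 libraries held 48.4 to 249 units, and none of the other 20 passed 38.4.

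Marker miRNAs of other cell types were read in the same libraries. The 3 erythroid miRNAs, miR-451, miR-144 and miR-486, summed to 44.5 and 24.2 units in Ly6C-high marrow and spleen cells, against 118 and 25.8 in Ly6C-low marrow and spleen cells, and all 3 were under the background limit in Ly6C-high spleen cells. The endothelial and platelet miRNAs, miR-126-3p and miR-126-5p, summed to between 3.81 and 12.4, and 5 stromal miRNAs to between 7.01 and 21.5. The 4 lymphocyte miRNAs (miR-150, miR-155, miR-181a and miR-342-3p) summed to 292 and 339 in Ly6C-high marrow and spleen cells and to 264 and 274 in Ly6C-low marrow and spleen cells. miR-150, which is abundant in mature lymphocytes, lay between 8.07 and 39.6, where the highest value was in Ly6C-low marrow cells. Of 6 progenitor miRNAs, miR-10a alone passed the filter, at 42.0 and 29.6 in Ly6C-high marrow and spleen cells and 101 and 35.1 in Ly6C-low marrow and spleen cells. miR-125b-5p, which did not pass, lay the other way. It was at 14.0 and 21.5 in Ly6C-high marrow and spleen cells and 3.71 and 6.19 in Ly6C-low ones. All 6 summed to 66.1 and 78.0 in Ly6C-high marrow and spleen cells and to 113 and 51.6 in Ly6C-low ones. The part of such cells in the results below was not tested.

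Ly6C-high cells held more let-7d, let-7i and miR-543 than Ly6C-low cells in both organs, and less miR-29c, miR-142-3p, miR-340-5p and miR-148a. These 7 probes differed at least 2-fold the same way in marrow and in spleen on the log2(value + 10) scale, 3 of 53 higher (5.66%) and 4 lower (7.55%). Scaling each library to its total gave 4 higher and 3 lower, and quantile normalisation gave 4 and 4. Taking direction alone, 15 probes were higher in Ly6C-high cells in both organs (28.3%) and 26 were lower in both (49.1%), which made 41 of 53 with a shared direction (77.4%), and the median log2 difference was -0.10. The limma fit called 0 of 53 at an adjusted p under 0.05, and 13 had an unadjusted p under 0.05 (24.5%). On the recovered counts, edgeR's quasi-likelihood test called 9 (17.0%) and DESeq2 called 12 (22.6%) with Benjamini-Hochberg adjustment. Of the other alternatives, 5 made calls: 5 with a pseudocount of 1 and 5 with edgeR on the deposited scaling (9.43% each), 10 with a pseudocount of 50 (18.9%), 8 of 24 probes with a filter above 100 (33.3%) and 12 of 566 with no filter (2.12%). Of the 4 mRNA probes, 3 were higher in Ly6C-high cells in both organs. Rpl19 was 4.42-fold and 12.2-fold higher in marrow and spleen, B2m 2.55-fold and 5.61-fold and Gapdh 1.29-fold and 2.01-fold. Actb was 0.988-fold in marrow and 3.5-fold in spleen, and the part of this in the miRNA differences was not tested.

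let-7d had the widest margin on the higher side. Its values were 478 and 229 units in Ly6C-high marrow and spleen cells, against 139 and 67.1 in Ly6C-low marrow and spleen cells. Ly6C-high cells were thus above Ly6C-low cells of the same organ, by 3.44-fold in marrow (2.96 to 4.00) and 3.41-fold in spleen (2.44 to 4.78). The log2 difference was 1.67 ± 0.19 (SE; limma, adjusted p = 0.0837) and stayed between 1.60 and 1.95 over the other scalings. let-7d was called in 7 of 13 alternatives with a test, beside those that left out a library, where it was not called. With a pseudocount of 50 its difference was smaller (1.37) and its SE larger (0.28). limma's unadjusted p nevertheless fell from 0.0056 to 1.24e-05, because the fit then drew the spread more from all probes together.

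let-7i, a miRNA of the same seed, followed the same order, with 352 and 221 units in Ly6C-high marrow and spleen cells and 165 and 78.4 in Ly6C-low marrow and spleen cells. Its folds were 2.13 in marrow (1.82 to 2.49) and 2.81 in spleen (2.03 to 3.90), and limma's adjusted p was 0.134. Recovered counts of let-7i were 277 and 82 in Ly6C-high marrow and spleen cells and 401 and 76 in Ly6C-low ones. Its log2 difference stayed between 1.14 and 1.44 over the other scalings. The let-7 family as a whole leaned to the Ly6C-high side: 7 of its 8 tested members were higher in both organs, 0 were lower in both, and the median log2 difference was 0.64 against -0.10 over all tested probes. Of all 53 tested probes, 15 were higher in both organs (28.3%) and 26 lower (49.1%). let-7b held 125 and 102 units in Ly6C-high marrow and spleen cells, against 58.1 and 26.8 in Ly6C-low marrow and spleen cells. let-7c held 92.8 and 80.7 in Ly6C-high marrow and spleen cells, against 47.0 and 48.5 in Ly6C-low marrow and spleen cells. let-7a, let-7e and let-7f differed less, with log2 differences of 0.50, 0.54 and 0.50. The members of this family are close in sequence and a probe may read a relative, so they are not separate observations.

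let-7g was the member that split. Ly6C-high marrow cells held 422 units against 833 in Ly6C-low marrow cells, a fold of 0.507 (0.45 to 0.569), whereas Ly6C-high spleen cells held 355 against 130 in Ly6C-low spleen cells, a fold of 2.73 (2.12 to 3.51). The Ly6C-low marrow library thus held more let-7g than the other 3 libraries.

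miR-543, from the large imprinted miRNA cluster on chromosome 12, had 123 and 202 units in Ly6C-high marrow and spleen cells and 38.3 and 88.8 in Ly6C-low marrow and spleen cells (log2 difference 1.28, limma, adjusted p = 0.134). Its recovered counts were nearly level, at 97 and 75 in Ly6C-high marrow and spleen cells against 93 and 86 in Ly6C-low marrow and spleen cells. The order of its values is that of the value of 1 count, which was 1.27 and 2.69 units in Ly6C-high marrow and spleen cells and 0.412 and 1.03 in Ly6C-low marrow and spleen cells. Over all 24 immune libraries its counts ran from 30 to 165.

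**Figure D1:**
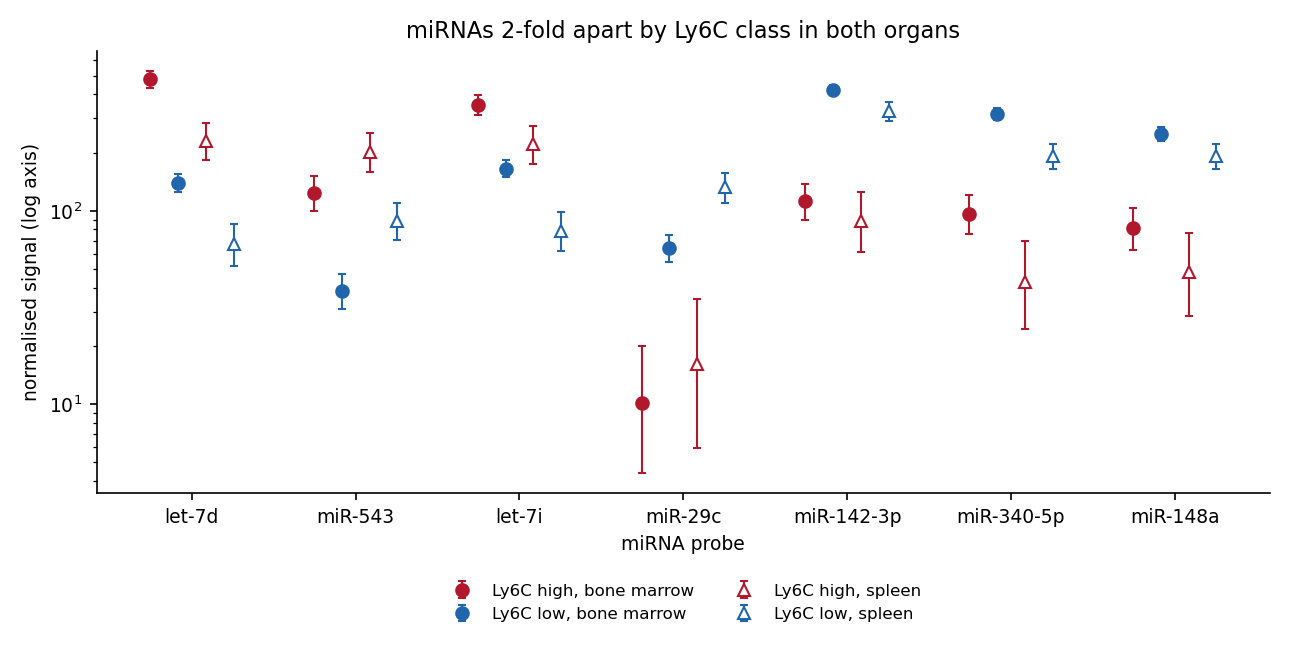
Normalised signal (log axis) of the 7 miRNA probes that differed at least 2-fold the same way in both organs, with 1 point per library and bars for the 95% Poisson interval of its count. Red points are Ly6C-high and blue points Ly6C-low cells, circles are marrow and triangles spleen; red lies above blue for let-7d, miR-543 and let-7i and below it for the other 4.

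On the lower side, miR-29c had the largest difference of the 53 probes. miR-29 miRNAs are known to repress collagen and DNA methyltransferase transcripts. miR-29c had 10.2 and 16.1 units in Ly6C-high marrow and spleen cells, against 63.9 and 132 in Ly6C-low marrow and spleen cells. Ly6C-high cells were near the background limit in both organs, with 8 and 6 counts in marrow and spleen. miR-29c thus passed the filter only through the Ly6C-low libraries, the class where it is high. Its test is therefore not independent of its selection. The folds were 0.159 in marrow (0.0675 to 0.322) and 0.122 in spleen (0.044 to 0.273), and the log2 difference was -2.16 ± 0.26 (SE; limma, adjusted p = 0.0837). The other 2 family members lay the same way by less: miR-29a had 52.1 and 61.9 units in Ly6C-high marrow and spleen cells, against 84.9 and 102 in Ly6C-low marrow and spleen cells, and miR-29b had 35.6 and 35.0 in Ly6C-high marrow and spleen cells, against 57.3 and 53.7 in Ly6C-low ones.

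miR-142-3p, a haematopoietic miRNA, was at 112 and 88.8 units in Ly6C-high marrow and spleen cells and at 423 and 326 in Ly6C-low marrow and spleen cells. Both Ly6C-high libraries lay below both Ly6C-low libraries, with folds of 0.265 in marrow (0.21 to 0.329) and 0.272 in spleen (0.184 to 0.39). The log2 difference was -1.80 ± 0.19 (SE; limma, adjusted p = 0.0837), and it was called in 7 of the same 13 alternatives. The other arm of the same hairpin, miR-142-5p, lay the opposite way, at 38.1 and 61.9 units in Ly6C-high marrow and spleen cells against 20.2 and 28.9 in Ly6C-low marrow and spleen cells. Its folds were 1.89 (1.16 to 3.04) and 2.14 (1.18 to 3.86), with a log2 difference of 0.78 and a limma adjusted p of 0.165. The difference between the arms was not tested.

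miR-340-5p had 96.6 and 43.1 units in Ly6C-high marrow and spleen cells, against 318 and 191 in Ly6C-low marrow and spleen cells (log2 difference -1.77 ± 0.22, SE; limma, adjusted p = 0.0837). None of the other 20 immune libraries passed 84.8 units of miR-340-5p, so Ly6C-high marrow cells and both Ly6C-low libraries stood above all of them. miR-148a, a miRNA known to restrain DNA methyltransferase transcripts, had 81.4 and 48.4 units in Ly6C-high marrow and spleen cells, against 249 and 191 in Ly6C-low marrow and spleen cells. Its folds were 0.327 (0.249 to 0.423) and 0.254 (0.147 to 0.412), with a log2 difference of -1.64 ± 0.22 (SE; limma, adjusted p = 0.0837). Both miRNAs were called in 7 of the 13 alternatives, and miR-29c in 6 of the 12 in which it was tested.

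The classes differed the same way in both organs by more than counting error, as judged by each fold's 95% interval, for 7 higher probes (13.2%) and 10 lower ones (18.9%). Beside those above, the higher ones included miR-34c and the lower ones miR-223, miR-16, miR-15b, miR-22, miR-27a and miR-29a. In spleen the recovered count of miR-34c was lower in Ly6C-high than in Ly6C-low cells, unlike its value. The part of depth in its difference was not tested. miR-223 had 4423 and 1762 units in Ly6C-high marrow and spleen cells, against 11442 and 2185 in Ly6C-low marrow and spleen cells. Its fold was 0.387 in marrow (0.373 to 0.40) and 0.807 in spleen (0.738 to 0.881), so the organs differed in size, and limma gave a log2 difference of -0.84 ± 0.86 (SE). miR-16, which restrains cell cycle genes, had 651 and 918 in Ly6C-high marrow and spleen cells, against 1267 and 1464 in Ly6C-low marrow and spleen cells. miR-22, reported to act in myeloid differentiation, had 130 and 105 in Ly6C-high marrow and spleen cells, against 225 and 196.1 in Ly6C-low marrow and spleen cells.

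Of the miRNAs known from work on monocyte subsets, 4 of 6 were tested. miR-155, which is induced when myeloid cells are activated, had 82.7 and 172 units in Ly6C-high marrow and spleen cells, against 25.5 and 137 in Ly6C-low marrow and spleen cells. The marrow fold was 3.23 (2.25 to 4.66) and the spleen fold 1.25 (0.916 to 1.70), where the interval included 1. miR-146a, a brake on NF-κB signalling that has been reported higher in Ly6C-low mouse monocytes, was below the filter. It had 3.81 and 5.38 units in Ly6C-high marrow and spleen cells, against 14.0 and 38.2 in Ly6C-low marrow and spleen cells. The Ly6C-high values were 3 and 2 counts, under the background limit, and the folds were 0.272 (0.0535 to 0.866) and 0.141 (0.0165 to 0.546). With no filter on low values, limma called miR-146a (log2 difference -1.22, adjusted p = 0.00706). miR-132 was at or under 8.07 units in all 4 libraries and under the background limit in each.

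**Figure D2:**
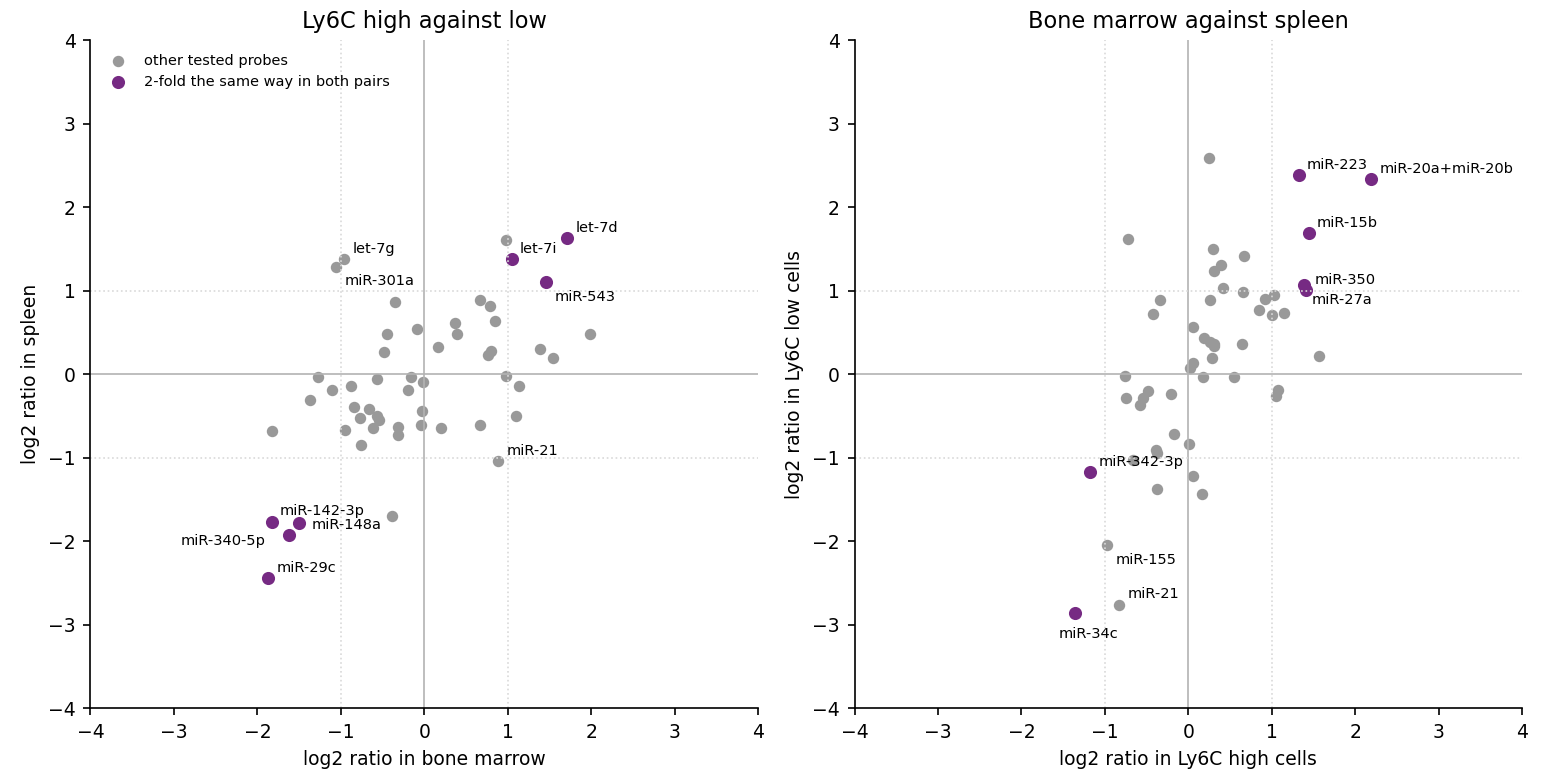
Log2 ratios of (value + 10) for the 53 tested probes, with 1 point per probe. The left panel plots Ly6C high against low in spleen over the same ratio in marrow, and the right panel bone marrow against spleen in Ly6C-low cells over that in Ly6C-high cells; purple points passed 2-fold the same way in both pairs (7 in each panel), dotted lines mark 2-fold, and miR-301a and let-7g lie in the upper left of the left panel.

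Bone marrow cells held more of the miR-20a and miR-20b probe, miR-223, miR-15b, miR-27a and miR-350 than spleen cells in both Ly6C classes, and less miR-34c and miR-342-3p. These 7 passed 2-fold the same way in both classes, 5 of 53 higher (9.43%) and 2 lower (3.77%). Among them, miR-350 and miR-342-3p passed the filter only through the libraries of the organ where they are high. That split depended on scaling: with each library scaled to its total it was 2 higher and 4 lower, and after quantile normalisation 1 and 3. Over the 53 probes the median log2 difference of marrow against spleen was 0.31 as deposited and -0.18 when scaled to the total. Values and folds between organs are given as deposited, without allowance for that shift, except where another scaling is named. By direction alone, 28 probes were higher in marrow in both classes (52.8%) and 15 lower (28.3%), together 43 of 53 (81.1%). limma called 0 of 53 at an adjusted p under 0.05 and 14 had an unadjusted p under 0.05 (26.4%), while edgeR with TMM scaling called 6 (11.3%) and DESeq2 called 11 (20.8%). Calls were also made with a pseudocount of 50, at 16 (30.2%), with a filter above 100, at 11 of 24 (45.8%), and with no filter, at 8 of 566 (1.41%). The 4 mRNA probes moved with this contrast and were all higher in marrow. Actb had 5360 and 5427 units in Ly6C-high and Ly6C-low marrow cells, against 579 and 165 in Ly6C-high and Ly6C-low spleen cells, and the part of this in the miRNA differences was not tested.

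The miR-20a and miR-20b probe had 894 and 795 units in Ly6C-high and Ly6C-low marrow cells, against 188 and 149 in Ly6C-high and Ly6C-low spleen cells. The organs did not overlap, and the folds were alike in both classes, 4.75 (3.71 to 6.16) in Ly6C-high and 5.35 (4.51 to 6.38) in Ly6C-low cells. The log2 difference was 2.27 ± 0.22 (SE; limma, adjusted p = 0.0954) and stayed between 1.68 and 2.30 over the other scalings. None of the other 20 immune libraries held as much as these marrow cells, the highest of them being B cells at 578. Of the miR-17-92 cluster and its paralogues, 6 of 7 tested probes were higher in marrow in both classes and 0 were lower in both, with a median of 0.90 against 0.31 over all tested probes. Of all 53 tested probes, 28 were higher in marrow in both classes (52.8%) and 15 lower (28.3%). miR-25 had 449 and 633 units in Ly6C-high and Ly6C-low marrow cells, against 280 and 230 in Ly6C-high and Ly6C-low spleen cells, and its log2 difference of 1.04 became 0.063 at the lowest of the other scalings. miR-19a had 114 and 116 in Ly6C-high and Ly6C-low marrow cells, against 59.2 and 64.0 in Ly6C-high and Ly6C-low spleen cells. miR-93 lay the same way, at 42.0 and 54.8 in Ly6C-high and Ly6C-low marrow cells against 13.5 and 28.9 in Ly6C-high and Ly6C-low spleen cells. By Ly6C class, 1 probe of the same family was higher in both organs, 4 were lower and 2 split, against 15, 26 and 12 of all 53 tested probes. Its median log2 difference by Ly6C class was -0.10, as over all tested probes.

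miR-223 had 4423 and 11442 units in Ly6C-high and Ly6C-low marrow cells, against 1762 and 2185 in Ly6C-high and Ly6C-low spleen cells. Both marrow libraries were above both spleen libraries, by 2.51-fold in Ly6C-high (2.31 to 2.73) and 5.24-fold in Ly6C-low cells (5.01 to 5.48). The classes thus differed in size, and the log2 difference was 1.85 ± 0.86 (SE; limma, adjusted p = 0.268). It was 0.92 at the lowest of the other scalings.

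miR-15b, a cell cycle regulator, had 654 and 1044 units in Ly6C-high and Ly6C-low marrow cells, against 234 and 316 in Ly6C-high and Ly6C-low spleen cells, with folds of 2.79 (2.22 to 3.55) and 3.30 (2.93 to 3.73). The log2 difference was 1.57 ± 0.24 (SE; limma, adjusted p = 0.124) and lay between 0.93 and 1.60 over the other scalings. miR-16, with the same seed and a copy beside it in Smc4, lay the other way, slightly so as deposited: 651 and 1267 units in Ly6C-high and Ly6C-low marrow cells, against 918 and 1464 in Ly6C-high and Ly6C-low spleen cells. Its log2 difference was -0.35 as deposited and lay between -0.94 and -0.31 over the other scalings. miR-15a was at 473 and 648 in Ly6C-high and Ly6C-low marrow cells and 379 and 269 in Ly6C-high and Ly6C-low spleen cells, and its direction turned after quantile normalisation. miR-27a, of the miR-23a, miR-27a and miR-24 cluster, had 156 and 197 in Ly6C-high and Ly6C-low marrow cells, against 53.8 and 88.8 in Ly6C-high and Ly6C-low spleen cells (log2 difference 1.22, limma, adjusted p = 0.153). The difference of miR-27a was 0.67 at the lowest of the other scalings. miR-350 had 38.1 and 39.2 in Ly6C-high and Ly6C-low marrow cells, against 8.07 and 14.4 in Ly6C-high and Ly6C-low spleen cells, where it rested on 3 and 14 counts.

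**Figure D3:**
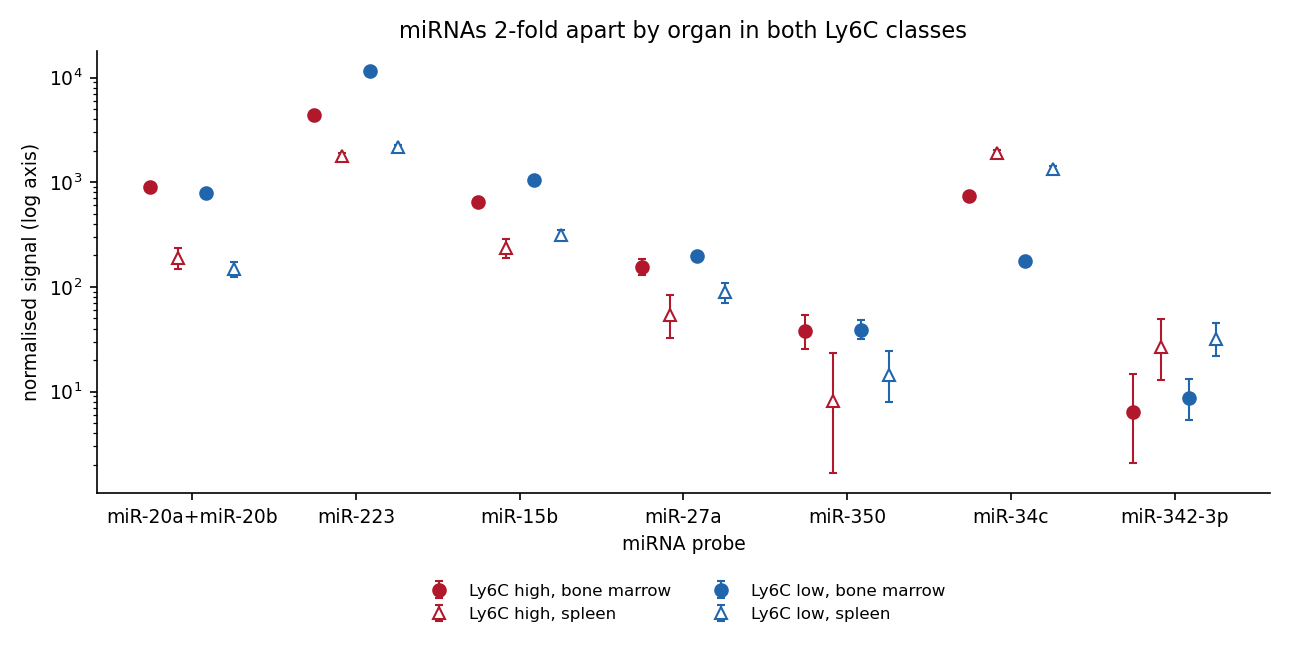
Normalised signal (log axis) of the 7 miRNA probes that differed at least 2-fold the same way between bone marrow and spleen in both Ly6C classes, with 1 point per library and bars for the 95% Poisson interval of its count. Circles are marrow and triangles spleen, red is Ly6C high and blue Ly6C low; circles lie above triangles for the first 5 probes and below them for miR-34c and miR-342-3p.

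Among probes lower in marrow, miR-342-3p, hosted by the gene Evl, had 6.36 and 8.66 units in Ly6C-high and Ly6C-low marrow cells, against 26.9 and 32.0 in Ly6C-high and Ly6C-low spleen cells. The folds were 0.236 (0.0634 to 0.759) and 0.271 (0.148 to 0.486), with a log2 difference of -1.17 ± 0.09 (SE; limma, adjusted p = 0.0954), and the marrow values rested on 5 and 21 counts. miR-342-3p passed the filter only through the spleen libraries, where it is high, so its test is not independent of its selection. All other 20 immune libraries held more miR-342-3p than Ly6C-high marrow cells, with a median of 119. In liver macrophages, gut macrophages and eye microglia 1 count was worth 8.53, 7.68 and 6.97 units. The lowest count was 1, so these libraries could not have lain under 6.36. miR-34c, a miRNA downstream of p53, had 731 and 178 units in Ly6C-high and Ly6C-low marrow cells, against 1892 and 1350 in Ly6C-high and Ly6C-low spleen cells (log2 difference -2.11 ± 0.55, SE; limma, adjusted p = 0.172). Its counts were 575 and 431 in Ly6C-high and Ly6C-low marrow cells and 703 and 1308 in Ly6C-high and Ly6C-low spleen cells. They stayed between 65 and 2490 in all 24 immune libraries while values reached 11874 in the shallower ones, and the part of depth in its difference was not tested.

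miR-155, induced on activation, and miR-21, common in macrophages and many other cells, were lower in marrow in both classes, by just under 2-fold in Ly6C-high cells on the log2(value + 10) scale. miR-155 had 82.7 and 25.5 units in Ly6C-high and Ly6C-low marrow cells, against 172 and 137 in Ly6C-high and Ly6C-low spleen cells, with folds of 0.48 (0.335 to 0.689) and 0.186 (0.135 to 0.253). miR-21 had 103 and 51.1 units in Ly6C-high and Ly6C-low marrow cells, against 191 and 404 in Ly6C-high and Ly6C-low spleen cells, with folds of 0.539 (0.387 to 0.752) and 0.127 (0.103 to 0.155). limma's adjusted p was 0.172 for miR-155 and 0.244 for miR-21, and both were called in 5 of 13 alternatives with a test. miR-150 lay the other way, at 24.2 and 39.6 in Ly6C-high and Ly6C-low marrow cells against 8.07 and 16.5 in Ly6C-high and Ly6C-low spleen cells (log2 difference 0.91, limma, adjusted p = 0.124). miR-150 passed the filter only through the marrow libraries, where it is high. Within the let-7 family, 5 of 8 tested members were higher in marrow in both classes, 2 lower (let-7a and let-7e) and 1 split. Over all 53 tested probes, 28 were higher (52.8%), 15 lower (28.3%) and 10 split. The organs differed the same way in both classes by more than counting error for 13 higher probes (24.5%) and 6 lower ones (11.3%), and in opposite ways for 0.

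**Figure D4:**
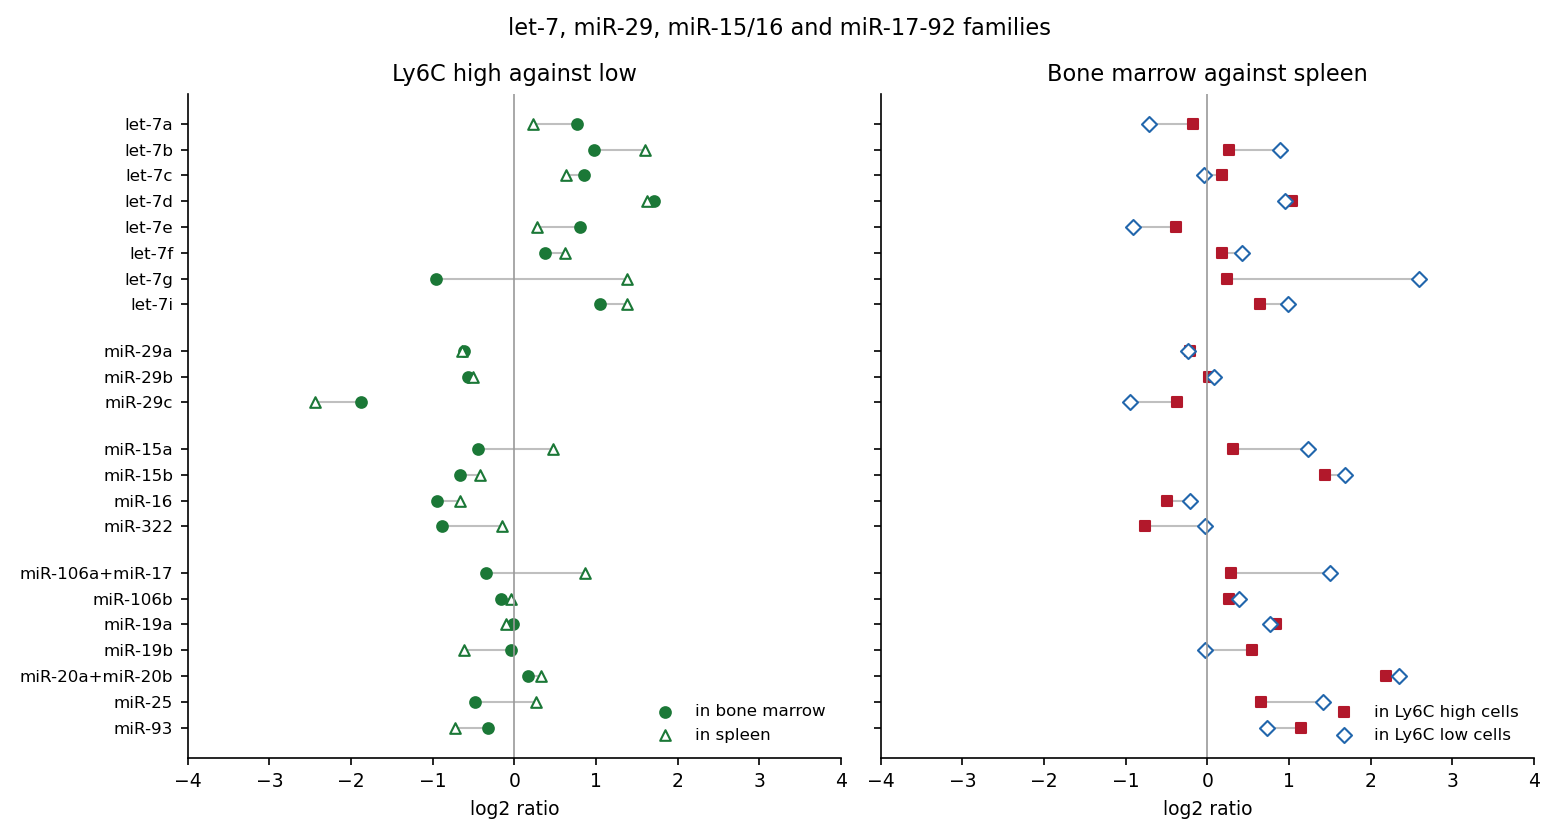
Log2 ratios of (value + 10) in each matched pair for the tested members of 4 miRNA families, Ly6C high against low on the left and bone marrow against spleen on the right, with a line joining the ratios of 1 probe. Ratios of the let-7 family lie right of 0 in the left panel except let-7g in marrow, the miR-29 family lies left of 0 there, and the miR-17-92 family lies right of 0 in the right panel except miR-19b in Ly6C-low cells.

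A few probes differed between Ly6C classes in one direction in marrow and in the other in spleen. miR-301a did so by more than 2-fold each way, with 14.0 units in Ly6C-high against 40.0 in Ly6C-low marrow cells, and 29.6 in Ly6C-high against 6.19 in Ly6C-low spleen cells. Its counts there were 11 against 97 in marrow and 11 against 6 in spleen. miR-21 was 2.02-fold higher in Ly6C-high than Ly6C-low marrow cells (1.5 to 2.69) and 0.473-fold in spleen (0.362 to 0.611). miR-15a was at 0.73-fold in marrow (0.65 to 0.817) and 1.41-fold in spleen (1.14 to 1.74). Together with let-7g, these made 4 of 53 probes whose intervals lay on opposite sides of 1. miR-720, a probe whose target derives from a transfer RNA, had 1059 and 350 units in Ly6C-high marrow and spleen cells, against 356 and 304 in Ly6C-low marrow and spleen cells, and its fold was 2.98 in marrow (2.70 to 3.28) and 1.15 in spleen (0.927 to 1.42). As a description across the 53 tested probes, log2 values correlated at 0.90 between the Ly6C-high libraries and 0.783 between the Ly6C-low libraries. Between Ly6C classes they correlated at 0.853 within marrow and 0.839 within spleen, over probes that share libraries and scaling.

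The labels were set against gene markers in 4 samples of a separate 400-gene nCounter panel, which are labelled Ly6C-high and Ly6C-low monocytes of the same organs. Of the marker lists, the panel held 0 of 8 genes for Ly6C-high monocytes, 1 of 9 for Ly6C-low monocytes, 1 of 10 for neutrophils and 3 of 6 for macrophages. Cx3cr1, the chemokine receptor that is high on Ly6C-low monocytes, went against the labels, with 318 and 677 units in Ly6C-high marrow and spleen samples and 11.1 and 220 in Ly6C-low marrow and spleen samples. Csf3r, the receptor for the granulocyte growth factor G-CSF, had 191 and 280 units in Ly6C-high marrow and spleen samples, against 1319 and 2626 in Ly6C-low marrow and spleen samples, and 374 in the panel's neutrophil sample. Fcgr1, a high-affinity Fc receptor of monocytes and macrophages, had 86.8 and 77.7 in Ly6C-high marrow and spleen samples, against 7.18 and 24.1 in Ly6C-low marrow and spleen samples. Csf1r, the receptor for the macrophage growth factor, had 792 and 1565 in Ly6C-high marrow and spleen samples, against 183 and 1356 in Ly6C-low marrow and spleen samples. Mertk, a macrophage receptor for dying cells, had 2.61 and 39.2 in Ly6C-high marrow and spleen samples, against 24.2 and 134 in Ly6C-low marrow and spleen samples. Cx3cr1 and Csf3r thus lay opposite to the order known for Ly6C-low monocytes. Mertk was higher in the Ly6C-low samples of both organs, and Csf1r in Ly6C-low spleen was near its Ly6C-high value. The median over all panel genes was 9.14 and 39.2 units in Ly6C-high marrow and spleen samples, and 7.18 and 61.4 in Ly6C-low ones. Mertk in both Ly6C-high samples and Fcgr1 in both Ly6C-low samples were at or under these medians, so their differences rest on low values. The cells are called here by their sort. Chi3l1, a protein of neutrophil granules named after its values were seen, had 43.1 and 31.4 in Ly6C-high marrow and spleen samples, against 1306 and 403 in Ly6C-low marrow and spleen samples. The panel's neutrophil sample held 53.5 units of Chi3l1, under that sample's median of 107 over all genes. The labels do not say whether panel and miRNA samples shared RNA, and there is 1 panel sample per combination with no test.

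**Figure D5:**
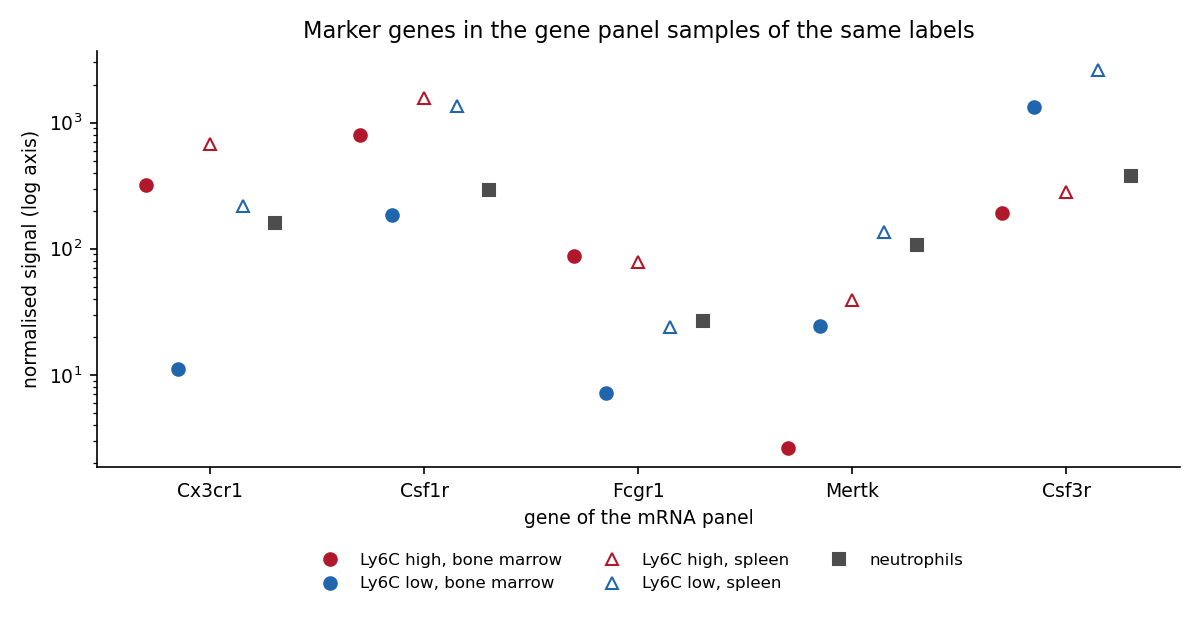
Normalised signal (log axis) of 5 marker genes in the gene panel samples labelled as Ly6C-high (red) and Ly6C-low (blue) monocytes of bone marrow (circles) and spleen (triangles), with the neutrophil sample in grey and 1 sample per point. Cx3cr1 and Fcgr1 are higher in both Ly6C-high samples, and Csf3r is higher in both Ly6C-low samples.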

How the data were processed

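Per the labels' protocols, total RNA of the 4 libraries was isolated with a mirVana kit. The deposited values are a normalised signal, and every value was a whole multiple of 1 step per library (100% within 0.1 count), so the barcode counts behind the signal deposited by the authors were recovered. The lowest count was 1. The sources used here do not state how the authors chose the scaling factor or treated background. The gene panel values are likewise a deposited normalised signal. Samples were grouped by their titles.

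log2(value + 10) was fitted with limma 3.58.1 (trend, R 4.3.3), with terms for Ly6C class and organ, 1 residual degree of freedom, and Benjamini-Hochberg adjustment over the 53 probes. A fold on that scale understates the change of low miRNAs. The fit was tested on simulated data. Folds with intervals are ratios of values, with exact binomial limits (scipy 1.17.1). Alternatives changed the pseudocount, the filter, the scaling, the libraries fitted and the test (edgeR 4.0.16 with TMM, DESeq2 1.42.0, both on recovered counts).

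Named miRNAs are those past 2-fold in both pairs, the 10 highest, those 2-fold in opposite directions, a fixed set of myeloid and lymphoid names, and counts over 17 lists. Members and lists were chosen with earlier results of these data known. Of the lists not described in the report, the 11 myeloid miRNAs had 8 tested, 2 higher in Ly6C-high cells in both organs and 5 lower. The miR-23, miR-27 and miR-24 clusters had 3 of 5 tested, 0 higher and 2 lower. Over all 53 tested probes, 15 were higher in Ly6C-high cells in both organs (28.3%) and 26 lower (49.1%). The miR-181, miR-30, miR-148 and miR-10 families had 1 tested each (miR-181a, miR-30d, miR-148a, miR-10a), and the miR-99, miR-100 and miR-125 family had 0. Probes carry older miRNA names, and their arms were matched to RefSeq names; miR-34c and miR-150 are named without sequence. The array samples and the other miRNA and panel samples were not used here except where named.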

Additional observations from a re-analysis of the deposited data

Results flagged for a closer look

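Differences between Ly6C classes that ran opposite ways in the organs were found for 4 probes, where the 95% counting interval of the fold lay on one side of 1 in marrow and on the other in spleen. The difference between organs itself was not tested, since each rests on 1 library per combination. The fold of Ly6C-high over Ly6C-low cells was 0.35 in marrow and 4.78 in spleen for miR-301a, whose spleen values rest on 11 and 6 counts. For let-7g it was 0.507 in marrow and 2.73 in spleen, and for miR-21 it was 2.02 in marrow and 0.473 in spleen. For miR-15a it was 0.73 in marrow and 1.41 in spleen.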

How the results depend on the processing

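The libraries were paired by organ and by Ly6C class through a term of the model, and limma without that term called 0 in both comparisons. By replicate number, no paired analysis was possible because the labels give these 4 libraries none. limma's count for Ly6C high against low was 0 as reported, and became 5 with a pseudocount of 1, 10 with 50, 12 with no filter on low values (of 566 probes) and 8 with a filter above 100 (of 24 probes). It was 9 with edgeR and TMM, 12 with DESeq2, and 5 with edgeR on the deposited scaling, which was chosen after seeing the data. For marrow against spleen the count became 16 with a pseudocount of 50, 8 with no filter, 11 with a filter above 100, 6 with edgeR and TMM and 11 with DESeq2. It stayed 0 in both comparisons with the filter at the background limit, under the other 3 scalings and over all 24 immune libraries. It was also 0 when any of the 4 libraries was left out (0 to 0), where each difference rests on 1 pair with the spread taken from the other immune groups, so this says nothing about stability. The count of probes past 2-fold in both pairs was 4 with a pseudocount of 50 in each comparison, against 7, and 4 after quantile normalisation between organs. Of 888 repeated differences of named miRNAs, 768 kept their direction and, where the setting gave a p-value, their side of the threshold. A further 92 became calls and 28 reversed, and the cause was not tested. The 888 include the fits that left out a library, so these counts do not measure stability. Reversals of Ly6C high against low were -0.065 for miR-15a (scaled to the 100 highest), 0.063 and 0.12 for miR-25 (quantile, total), 0.10, 0.021 and 0.045 for miR-21 (total, edgeR with TMM, DESeq2) and -0.026 for miR-301a (edgeR, deposited scaling). Between organs they were -0.16, -0.24 and -0.041 for miR-142-3p (quantile, total, DESeq2), -0.055 for miR-15a (quantile) and -0.054 for miR-148a (total). Leaving out a library gave ranges that crossed 0 for Ly6C high against low in miR-25 (-0.49 to 0.27), miR-301a (-1.06 to 1.29), miR-15a (-0.45 to 0.48), let-7g (-0.96 to 1.38), miR-1944 (-0.65 to 0.19) and miR-21 (-1.04 to 0.89). Between organs it did so in miR-301a (-0.72 to 1.63) and miR-1944 (-0.84 to 0.0039). The Ly6C-high spleen library, at 5283 counts, limits the precision of low probes.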
